A study of Mus musculus with 12 samples.

Results

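The nuclear genes for the subunits of the mitochondrial respiratory chain and ATP synthase were measured in the liver of 12 adult male mice, with 1 gene-level expression array per mouse. Members were chosen by a rule on the gene symbol, with earlier results of these data known. The rule took the Nduf subunit genes of complex I except Ndufab1, and Sdha to Sdhd of complex II. It also took the Uqcr genes and Cyc1 of complex III and Cycs for cytochrome c. From complexes IV and V it took the Cox4 to Cox8 genes and the Atp5 genes. The rule found 86 genes among 19505 named genes, of which 37 belong to complex I, 4 to complex II, 9 to complex III, 18 to complex IV and 17 to complex V, and 1 is Cycs. Every member had a single probe set with 1 symbol. The subunits encoded on mitochondrial DNA were not analysed here.

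All mice were C57BL/6J males of 4 to 5 months, housed at 23 °C on standard chow, and all are labelled as heterozygous for the Ucp1 null allele (HET). Arrays 1 to 6 hold 6 offspring of wild-type (WT) dams, here called WT-dam mice, and arrays 7 to 12 hold 6 offspring of UCP1-KO dams, called UCP1-KO-dam mice. UCP1-KO dams lack uncoupling protein 1, through which brown fat mitochondria release energy as heat. Dams of either kind were mated with HET sires, so the parent that passed on the null allele cannot be told apart from the dam's genotype. The comparison addresses whether the mother's lack of UCP1 goes with a difference in the liver of adult offspring. The labels do not say which mice shared a dam or litter, so a p-value here reflects only how much these 12 mice vary.

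The respiratory chain passes electrons from NADH (complex I) and succinate (complex II) through coenzyme Q, complex III and cytochrome c to oxygen at complex IV. Complexes I, III and IV pump protons across the inner mitochondrial membrane, and complex V, the ATP synthase, uses the returning protons to make ATP. In liver this supplies the energy for gluconeogenesis, urea synthesis and lipid handling, and the transcripts of most of these subunits are abundant in hepatocytes.

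No member differed between UCP1-KO-dam mice and WT-dam mice at an adjusted p under 0.05, the smallest adjusted p being 0.200 for Ndufc2 (limma, adjusted over all 22206 probe sets tested). In the same fit 8 probe sets of 22206 passed, or 0.036%. The difference of every member was small, with the largest fold change at 1.37 for Ndufc2. The 95% interval of the difference lay within a 2-fold change in either direction for 85 of the 86 members, the exception being Ndufs7, and within 1.5-fold for 68. The difference was smaller than the range over the 6 WT-dam mice for 85 members, and Ndufc2 was the exception.

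The point estimates lay above 0 more often than below. The mean signal was higher in UCP1-KO-dam mice for 59 of the 86 members (68.6%), beside 56.6% of all named genes, with a median log2 difference of 0.13 against 0.03. Among the 79 members above the median of the negative control probes in both groups, 56 had a difference above 0 (70.9%). This stands beside 48.7% of the 9539 named genes that pass the same condition, and the median differences were 0.14 and -0.01. These sets were not matched in brightness, with median log2 signals of 13.29 and 9.29. The cytosolic ribosomal protein genes, another bright list at a median of 12.78, had 83.1% above 0. The excess is thus not particular to the members. At an unadjusted p under 0.05, 5 members were higher (Ndufc2, Cox4i1, Ndufb5, Cox7a1 and Ndufs1), beside 7.08% of all probe sets, and 1 was lower (Ndufa8), beside 6% of all. These counts were not above the background shares. Leaving out 1 array moved the number of higher members by more than 1.5 times in 8 of 12 cases: it was 19 without array 1, 14 without array 2, 9 without array 9, 8 without array 8, 3 without array 4, 6 or 11 and 2 without array 3. The number of lower members was 0 without array 1, 2, 5, 8, 10 or 11. Shares over all probe sets are not given for these fits, so the counts describe only their dependence on the arrays. The background can move as well: 8 probe sets passed at an adjusted p under 0.05 with all arrays and 112 without array 2. In no member did the 6 values of one group all lie above the 6 of the other, which happened for 1.05% of all probe sets. The balance of signs moved with the WT-dam arrays used. Without arrays 3 to 6, the 4 of that group with the brightest negative controls, 27 of the 86 members had a difference above 0 and the median was -0.12, with an unadjusted p under 0.05 for 0 members higher and 12 lower, beside 3.26% higher and 3.77% lower of all probe sets in the same fit. Without the other 2 (arrays 1 and 2), 73 members had a difference above 0 and the median was 0.22, with 26 members higher and 0 lower, beside 7.95% and 6.36% of all probe sets. Members also stood high on arrays 1 and 2 and low on most of arrays 3 to 6, so these fits show how far the result depends on the arrays and do not test a difference between the dam groups. No member passed at an adjusted p under 0.05 in either fit.

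**Figure D1:**
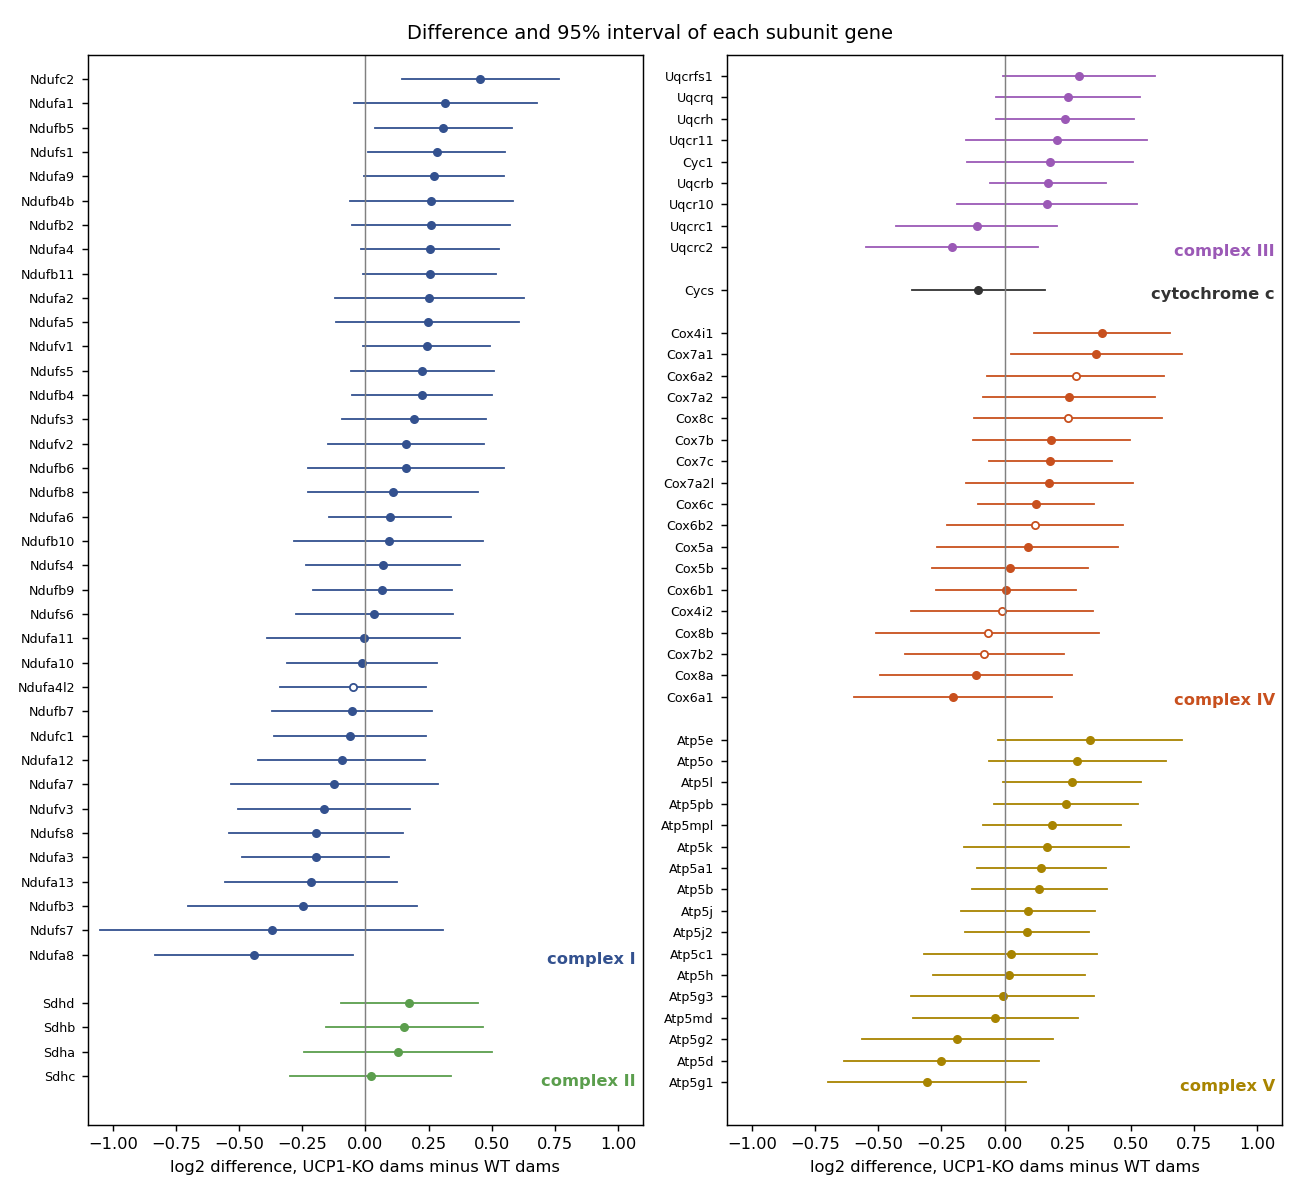
Log2 difference of each of the 86 member genes (x axis, mean of 6 UCP1-KO-dam mice less the mean of 6 WT-dam mice) with its 95% interval from the limma fit, grouped by complex and ordered by size. Open symbols mark genes that were not above the negative control median in both groups; nearly all intervals cross 0, with Ndufc2 (0.46) and Ndufa8 (-0.44) at the ends.

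Complex I, the NADH dehydrogenase, had no member that passed the test, and its largest estimates pointed in opposite directions. Of its 37 genes, 23 had a difference above 0 and 14 below, with a median of 0.10. The highest estimate belonged to Ndufc2, a small subunit of the membrane arm. Its log2 signal was 13.29, 13.44 and 13.59 (lowest, median and highest) in WT-dam mice and 13.46, 13.80 and 14.32 in UCP1-KO-dam mice. All UCP1-KO-dam mice except array 9 lay above the highest WT-dam mouse, with arrays 8 and 11 furthest up. The group means were 13.44 ± 0.14 (SD, n = 6) and 13.90 ± 0.32 (SD, n = 6). They differed by 0.46 (95% interval 0.14 to 0.77, adjusted p = 0.200). Ndufc2 and Cox4i1 were the only members that kept an unadjusted p under 0.05 when each array was left out in turn.

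The lowest estimate of complex I belonged to Ndufa8, an accessory subunit held together by disulfide bonds on the side of the intermembrane space. Its signal was 12.89, 13.33 and 13.88 in WT-dam mice and 12.54, 12.83 and 13.34 in UCP1-KO-dam mice. The groups overlapped widely, with WT-dam array 1 highest and UCP1-KO-dam arrays 10, 8 and 11 lowest. The difference was -0.44 (interval -0.83 to -0.05, adjusted p = 0.320), and it was -0.81 without arrays 3 to 6 and -0.16 without arrays 8, 10 and 11. Ndufc2 and Ndufa8 also parted within the UCP1-KO-dam group, since arrays 8 and 11 gave the highest values of the first and low values of the second.

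The catalytic core of complex I, the flavin and iron-sulfur subunits that carry electrons from NADH to coenzyme Q, was represented by 6 genes. Of these, 4 had a difference above 0 and 2 below, with a median of 0.18. Ndufs1, the largest iron-sulfur subunit, ranged from 11.58 to 11.99 with a median of 11.76 in WT-dam mice, and from 11.83 to 12.28 with a median of 12.04 in UCP1-KO-dam mice. The groups overlapped in the middle of this range, and the difference was 0.28 (0.01 to 0.55, adjusted p = 0.359). Ndufv1, which binds NADH and the flavin, gave 0.24 (-0.01 to 0.50, adjusted p = 0.396). Ndufs8, another iron-sulfur subunit, gave -0.19 (-0.54 to 0.15, adjusted p = 0.648).

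Ndufs7, the subunit beside the coenzyme Q site, varied more between mice than any other member named here. It ranged from 11.27 to 12.67 with a median of 11.81 in WT-dam mice and from 10.15 to 12.26 with a median of 11.62 in UCP1-KO-dam mice. Arrays 1 and 2 were the highest of all and array 8 stood lowest. Its difference was -0.37 with an interval from -1.05 to 0.31 (adjusted p = 0.664), and -0.10 without array 8, -1.06 without arrays 3 to 6 and 0.20 without arrays 8, 10 and 11.

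The remaining 31 genes, accessory subunits by symbol, had 19 differences above 0 and 12 below with a median of 0.09. Ndufb5, a subunit of the membrane arm, ranged from 11.68 to 12.19 (median 11.79) in WT-dam mice and from 12.00 to 12.37 (median 12.15) in UCP1-KO-dam mice. WT-dam arrays 1 and 2 lay inside the range of the other group, and the other 4 below it. The difference was 0.31 (0.04 to 0.58, adjusted p = 0.313), and it was 0.05 without arrays 3 to 6. Ndufa4, whose symbol places it here, is now regarded as a subunit of complex IV, and gave 15.50 ± 0.23 and 15.76 ± 0.12 (SD, n = 6 each). Ndufb4 and Ndufb4b are near-identical copies, and their probe sets may share transcripts.

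Complex II, succinate dehydrogenase, also takes part in the citric acid cycle and is the only complex encoded wholly in the nucleus. All 4 of its genes had a difference above 0, with a median of 0.14 and no adjusted p under 0.593. The flavin subunit Sdha ranged from 12.06 to 12.72 (median 12.23) in WT-dam mice and from 11.94 to 13.00 (median 12.44) in UCP1-KO-dam mice. The range of the second group contained that of the first, with array 9 at the top and array 8 at the bottom. The difference was 0.13 (-0.24 to 0.50, adjusted p = 0.800), and with 1 array left out it ran from 0.014 (without array 9) to 0.22 (without array 8).

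The iron-sulfur subunit Sdhb had means of 13.78 ± 0.18 and 13.94 ± 0.29 (SD, n = 6 each), which differed by 0.15 (-0.15 to 0.46, adjusted p = 0.696). The membrane anchors, which hold the coenzyme Q site, gave 0.17 for Sdhd (-0.10 to 0.44, adjusted p = 0.593) and 0.02 for Sdhc (-0.30 to 0.34, adjusted p = 0.973). The sign of all 4 turned when arrays 3 to 6 were left out, to between -0.15 for Sdhc and -0.03 for Sdhb.

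Complex III, the cytochrome bc1 complex, had 7 differences above 0 and 2 below, with a median of 0.18. The members below 0 were Uqcrc1 and Uqcrc2, the large core proteins that face the matrix and are related to the mitochondrial processing peptidase. Uqcrc2 ranged from 11.01 to 11.86 (median 11.32) in WT-dam mice and from 10.87 to 11.42 (median 11.14) in UCP1-KO-dam mice. WT-dam arrays 1 and 5 lay above every UCP1-KO-dam mouse, while the remaining values were mixed. The difference was -0.21 (-0.55 to 0.13, adjusted p = 0.620). Uqcrc1 gave -0.11 (-0.43 to 0.21, adjusted p = 0.800), a value that was 0.01 without UCP1-KO-dam arrays 8, 10 and 11 and 0.04 without WT-dam arrays 1 and 2.

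The catalytic subunits of complex III that the nucleus encodes are the Rieske iron-sulfur protein, Uqcrfs1, and cytochrome c1, Cyc1. Uqcrfs1 ranged from 12.07 to 12.56 (median 12.19) in WT-dam mice and from 12.21 to 12.86 (median 12.63) in UCP1-KO-dam mice. WT-dam arrays 1, 2 and 5 lay inside the range of the second group, and UCP1-KO-dam arrays 7 and 8 lay inside that of the first. The difference was 0.29 (-0.01 to 0.60, adjusted p = 0.394), and 0.01 without arrays 3 to 6. Cyc1 gave 0.18 (-0.15 to 0.51, adjusted p = 0.662).

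The 5 small subunits of complex III all had a difference above 0, from 0.17 for Uqcr10 to 0.25 for Uqcrq. Uqcrh, the hinge protein that contacts cytochrome c1, gave 0.24 (-0.03 to 0.51, adjusted p = 0.448). Uqcrb, next to the coenzyme Q site, had one of the narrowest spreads among the members, with 17.81 ± 0.10 in WT-dam mice and 17.98 ± 0.05 in UCP1-KO-dam mice (SD, n = 6 each). Its difference of 0.17 (-0.06 to 0.40) did not pass (adjusted p = 0.520).

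Cycs, the soluble carrier between complexes III and IV, ranged from 15.28 to 15.62 (median 15.52) in WT-dam mice and from 15.17 to 15.71 (median 15.36) in UCP1-KO-dam mice. The groups overlapped over nearly their whole range. The difference was -0.10 (-0.37 to 0.16, adjusted p = 0.769).

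Complex IV, cytochrome c oxidase, is the complex with tissue isoforms: several subunits exist in a form found in most tissues, liver included, and a form found mainly in heart, skeletal muscle, lung or testis. Whether each form was measured above the control signal in liver is given first. The mean of the negative control medians was 6.39 ± 0.21 in WT-dam mice and 6.21 ± 0.14 in UCP1-KO-dam mice (SD, n = 6 each). The forms Cox4i1, Cox6a1, Cox6b1, Cox7a2, Cox7b and Cox8a lay far above it, between 12.16 for the lowest value of Cox7a2 and 16.28 for the highest of Cox6a1. Their counterparts Cox4i2, Cox6a2, Cox6b2, Cox7b2 and Cox8b lay below it in both groups, as did Ndufa4l2, a relative of Ndufa4. Levels of different probe sets are not compared with each other here, since probes differ in brightness per transcript.

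A pair of isoforms lay near the control signal. Cox7a1, the heart and muscle form of subunit 7a that is also found in brown fat, ranged from 6.11 to 6.76 (median 6.48) in WT-dam mice and from 6.57 to 7.23 (median 6.72) in UCP1-KO-dam mice. UCP1-KO-dam arrays 7 and 9 were highest, and the groups overlapped between 6.57 and 6.76. The difference was 0.36 (0.03 to 0.70, adjusted p = 0.343), and 0.11 without arrays 3 to 6. Cox8c, a testis form, was just under the control signal in WT-dam mice (6.35 ± 0.27) and above it in UCP1-KO-dam mice (6.60 ± 0.38, SD, n = 6 each), with a difference of 0.25 (-0.12 to 0.62, adjusted p = 0.575). All 5 muscle markers (Ckm, Acta1, Myh4, Myl1 and Tnnt3) and all 3 adipocyte markers (Adipoq, Plin1 and Cidea) lay under the control signal in both groups.

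**Figure D2:**
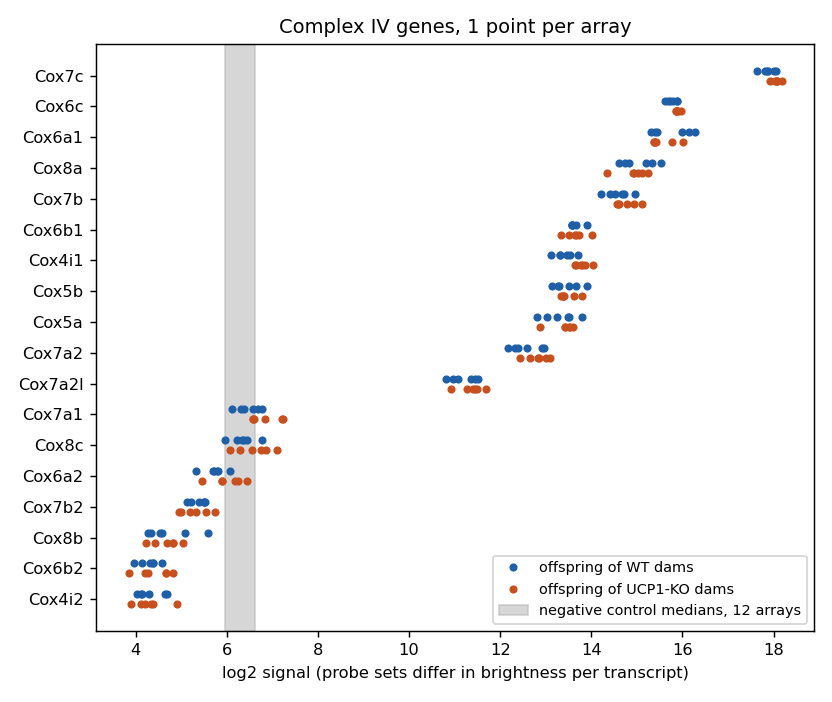
Log2 signal (x axis) of the 18 complex IV genes, 1 point per array, with WT-dam and UCP1-KO-dam mice on separate lines; the grey band spans the negative control medians of the 12 arrays. The liver forms lie well to the right of the band, 4 isoforms of other tissues (Cox4i2, Cox6b2, Cox7b2 and Cox8b) lie to its left on every array, and Cox6a2, Cox7a1 and Cox8c lie around it.

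The promoters of Cycs and of 4 isoform genes are shown because they contrast genes measured far above and near or below the control signal. Each is the stretch from 250 bases before to 50 after the annotated start in RefSeq's GRCm38.p6 table, read 5′ to 3′ on the gene's strand. Cox8a (chr19:7217567-7217866, minus strand) and Cox7a2 (chr9:79759804-79760103, minus strand) are the forms of most tissues. Cox8b (chr7:140900397-140900696, minus strand) and Cox7a1 (chr7:30183921-30184220, plus strand) are the heart and muscle forms, and Cycs lies at chr6:50566520-50566819 on the minus strand. Capitals mark the letters that matched a searched motif, which are CTTCCGG (the reverse complement of CCGGAAG) in Cox8a and CGCATGCGC in Cycs.
Cycs: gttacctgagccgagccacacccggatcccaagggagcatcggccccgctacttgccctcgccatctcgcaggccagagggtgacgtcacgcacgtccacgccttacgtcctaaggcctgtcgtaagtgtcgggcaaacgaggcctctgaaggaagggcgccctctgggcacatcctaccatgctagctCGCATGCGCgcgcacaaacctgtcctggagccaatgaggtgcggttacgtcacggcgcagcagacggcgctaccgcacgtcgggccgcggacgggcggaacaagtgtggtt
Cox8a: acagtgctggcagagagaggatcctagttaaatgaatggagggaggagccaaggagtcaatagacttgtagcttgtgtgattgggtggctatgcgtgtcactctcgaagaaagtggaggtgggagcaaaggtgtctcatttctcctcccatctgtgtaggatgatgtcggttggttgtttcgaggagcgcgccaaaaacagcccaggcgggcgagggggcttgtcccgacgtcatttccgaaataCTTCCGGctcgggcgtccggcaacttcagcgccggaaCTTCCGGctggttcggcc
Cox8b: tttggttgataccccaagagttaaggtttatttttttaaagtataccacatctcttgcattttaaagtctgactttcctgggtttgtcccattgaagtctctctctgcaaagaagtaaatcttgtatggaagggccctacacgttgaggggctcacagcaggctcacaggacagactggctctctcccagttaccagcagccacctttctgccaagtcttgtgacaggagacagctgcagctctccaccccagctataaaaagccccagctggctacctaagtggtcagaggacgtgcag
Cox7a2: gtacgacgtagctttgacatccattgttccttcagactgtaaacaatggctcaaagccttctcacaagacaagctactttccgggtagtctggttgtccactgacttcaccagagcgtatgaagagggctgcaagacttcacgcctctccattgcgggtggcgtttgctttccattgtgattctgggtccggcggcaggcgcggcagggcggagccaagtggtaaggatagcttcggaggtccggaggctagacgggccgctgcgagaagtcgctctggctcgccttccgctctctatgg
Cox7a1: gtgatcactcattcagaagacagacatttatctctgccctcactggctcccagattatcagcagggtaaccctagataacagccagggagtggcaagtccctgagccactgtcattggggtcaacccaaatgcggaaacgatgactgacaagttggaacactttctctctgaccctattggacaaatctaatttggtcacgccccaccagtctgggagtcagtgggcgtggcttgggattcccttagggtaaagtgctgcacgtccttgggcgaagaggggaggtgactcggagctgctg
The Cox8a promoter holds 19 CpG and that of Cox8b 2, while Cox7a2 has 20 and Cox7a1 has 7. Of the pairs not shown, Cox6b1 has 17 and Cox6b2 has 10, but Cox7b has 5 and Cox7b2 has 10. The form below the control signal thus did not always hold fewer CpG. The match in Cycs begins 61 bases before its start, and those in Cox8a begin 5 bases before and 32 bases after.

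Among the complex IV subunits of liver, Cox4i1, the large regulatory subunit that binds ATP, had the highest estimate. Its signal was 13.12, 13.39 and 13.71 (lowest, median and highest) in WT-dam mice and 13.65, 13.78 and 14.03 in UCP1-KO-dam mice. Only WT-dam array 2 reached into the range of the other group. The means of 13.41 ± 0.21 and 13.80 ± 0.14 (SD, n = 6 each) differed by 0.39 (0.12 to 0.66, adjusted p = 0.211), and by 0.21 without arrays 3 to 6.

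Cox6a1, a small subunit that spans the membrane, had the lowest estimate. It ranged from 15.30 to 16.28 (median 15.72) in WT-dam mice and from 15.37 to 16.02 (median 15.41) in UCP1-KO-dam mice. The WT-dam values formed a high set (arrays 1, 2 and 5) and a low set (arrays 3, 4 and 6). The difference was -0.20 (-0.60 to 0.19, adjusted p = 0.681), and it was -0.10 without array 1, 0.02 without arrays 1 and 2, -0.65 without arrays 3 to 6 and -0.02 without arrays 8, 10 and 11. Cox5a and Cox5b, which are matrix-facing subunits, gave 0.09 and 0.02, with adjusted p of 0.867 and 0.972. Cox7a2 gave 0.26 (adjusted p = 0.520), and Cox8a gave -0.11 (adjusted p = 0.837). Over all 18 genes, 13 differences lay above 0 and the median was 0.12. Without the 7 isoforms of other tissues, 9 of 11 lay above 0 with a median of 0.13.

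Complex V had 12 differences above 0 and 5 below, with a median of 0.09, and the estimates differed in sign between and within its subassemblies. The catalytic F1 head was represented by 5 genes, 4 of them above 0. The exception was Atp5d, the delta subunit of the central stalk, at -0.25 (-0.64 to 0.13, adjusted p = 0.589), with means of 15.03 ± 0.42 and 14.78 ± 0.25 (SD, n = 6 each). Atp5a1 and Atp5b, the alpha and beta subunits that form the ring of catalytic sites, gave 0.15 (-0.11 to 0.40, adjusted p = 0.643) and 0.14 (-0.13 to 0.40, adjusted p = 0.690). Atp5c1, the gamma subunit that turns inside this ring, gave 0.02 (-0.32 to 0.37, adjusted p = 0.973). Atp5e, the epsilon subunit, had the highest estimate of complex V. It ranged from 8.71 to 9.74 (median 9.32) in WT-dam mice and from 9.29 to 9.95 (median 9.61) in UCP1-KO-dam mice. WT-dam arrays 1, 2 and 4 lay among the second group and array 3 lay far below it. The difference was 0.34 (-0.03 to 0.70, adjusted p = 0.419), and -0.05 without arrays 3 to 6.

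The c ring, which turns as protons pass through the membrane, is built from 1 mature protein that 3 genes encode with different import signals. All 3 estimates lay below 0, with a median of -0.19. Atp5g1 ranged from 15.17 to 15.98 (median 15.57) in WT-dam mice and from 14.45 to 15.54 (median 15.42) in UCP1-KO-dam mice. Array 8 stood far below the rest of its group, and WT-dam arrays 1, 2 and 5 lay above every UCP1-KO-dam mouse. The difference was -0.31 (-0.70 to 0.08, adjusted p = 0.497), and -0.15 without array 8. Atp5g2 gave -0.19 (-0.57 to 0.19, adjusted p = 0.699). Atp5g3 gave -0.01 (-0.37 to 0.35, adjusted p = 0.991), a value that was above 0 after quantile normalization, without array 1, 2, 5, 8, 9 or 10, without arrays 1 and 2 together and without arrays 8, 10 and 11. Without arrays 1 and 2 Atp5g2 was at 0.01, so the shared sign of the c ring genes did not hold there.

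The 4 genes of the peripheral stalk, which holds the head still, all had a difference above 0, with a median of 0.17. Atp5o, the subunit that links stalk and head, gave 0.29 (-0.06 to 0.64, adjusted p = 0.478), and -0.18 without arrays 3 to 6. Its SD was 0.41 in WT-dam mice and 0.11 in UCP1-KO-dam mice. Atp5pb, the b subunit of the stalk, gave 0.24 (-0.04 to 0.53, adjusted p = 0.461). Of the 5 small membrane subunits 4 had a difference above 0, led by Atp5l, the g subunit, at 0.27 (-0.01 to 0.54, adjusted p = 0.394).

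The members varied together from array to array within each group. As the mean deviation of all 86 members from their 12-array means, the WT-dam arrays 1 to 6 stood at 0.26, 0.14, -0.25, -0.19, -0.01 and -0.20. The UCP1-KO-dam arrays 7 to 12 stood at 0.11, -0.16, -0.01, 0.01, 0.22 and 0.09. The highest and the lowest array of all belonged to the WT-dam group. On array 1 the mean deviation was above 0 for each of the 5 complexes, from 0.17 for complex IV to 0.29 for complex I, and on arrays 3 and 4 it was below 0 for each. On array 11 it was above 0 for each complex, from 0.18 for complex I to 0.32 for complex II, and on array 8 it was below 0 for each, from -0.22 for complex II to -0.11 for complex IV.

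**Figure D3:**
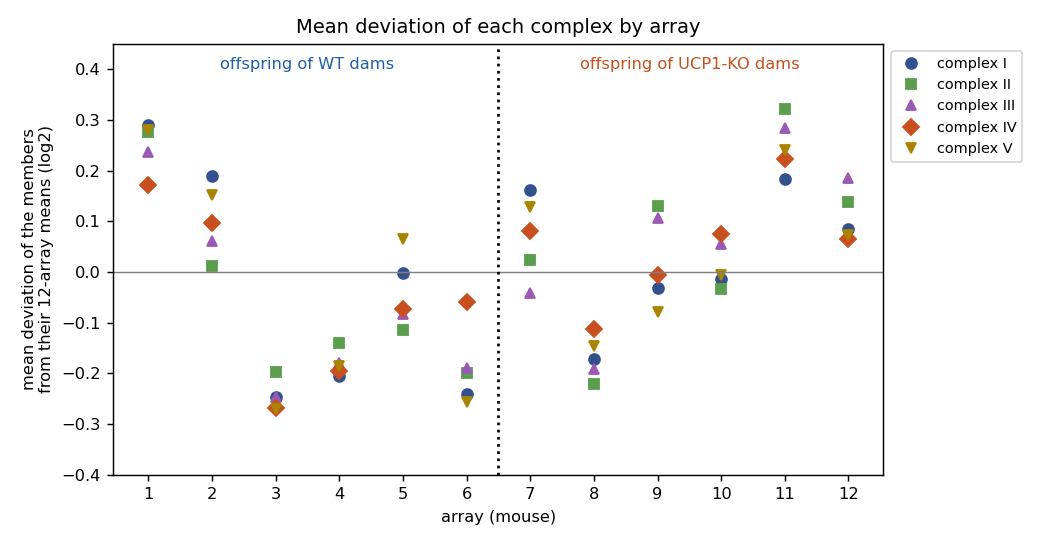
Mean deviation of the genes of each complex from their 12-array means (y axis, log2) on each array (x axis), with offspring of WT dams left of the dotted line and offspring of UCP1-KO dams right of it. The complexes lie close together on most arrays, and the spread between arrays of a group exceeds the distance between groups.

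The same arrays held the extremes for most members. Of the 79 members above the control signal, 55 had their highest WT-dam value on array 1 and 17 on array 2, and 37 had their lowest on array 3, 25 on array 6 and 13 on array 4. In UCP1-KO-dam mice 41 had their highest value on array 11 and 22 on array 7, while 38 had their lowest on array 8 and 22 on array 9. Over the 9539 named genes above the control signal, the mean deviation of an array ranged from -0.07 to 0.06. Processing set all arrays to 1 distribution of probe signals, which holds a mean over so many genes near 0. That range is therefore no measure for a small set. The mean deviation ranged from -0.38 to 0.18 for cytosolic ribosomal protein genes and from -0.16 to 0.24 for mitochondrial ones.

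Within the WT-dam group, the signal of the negative control probes differed along the same arrays. Its median on arrays 1 to 6 was 6.14, 6.14, 6.59, 6.62, 6.44 and 6.41, so arrays 3 to 6 were the brighter ones. On arrays 7 to 12 it was 6.27, 6.25, 5.96, 6.36, 6.15 and 6.27. In this group the weakest and the brightest control signal, on arrays 9 and 10, went with member deviations of -0.01 and 0.01. Arrays 8 and 12 had nearly equal control signals but member deviations of -0.16 and 0.09. The control signal of the groups differed by -0.17 (exact two-sided permutation test, p = 0.119, n = 6 each, where the smallest p this design allows is 0.0022). With this signal as a covariate the medians of complexes I to V were 0.00, 0.03, 0.05, 0.07 and 0.03. Without arrays 3 to 6 they were -0.17, -0.08, 0.00, -0.09 and -0.13, and without arrays 1 and 2 they were 0.22, 0.25, 0.29, 0.20 and 0.20. The part of the control signal in the members' differences was not tested.

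**Figure D4:**
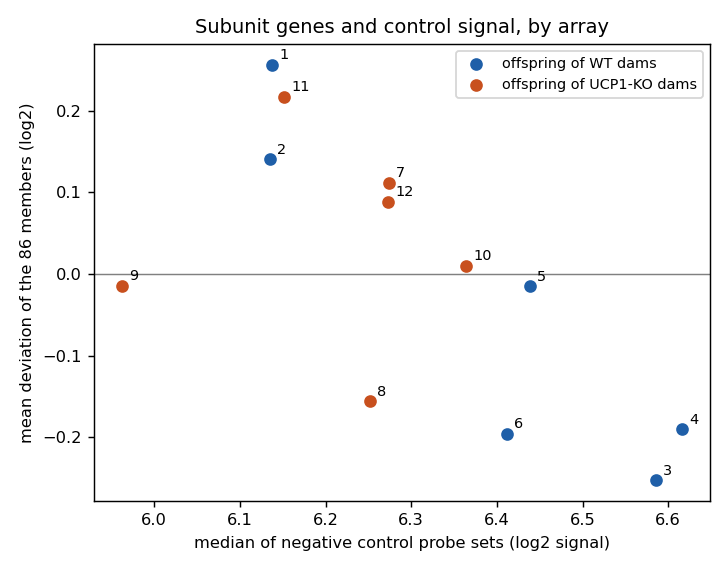
Mean deviation of the 86 members (y axis, log2) against the median signal of the negative control probe sets (x axis, log2) on each of the 12 arrays, numbered as in the text. WT-dam arrays 3, 4 and 6 lie at the lower right and arrays 1 and 2 at the upper left; UCP1-KO-dam array 9 has the weakest control signal with a deviation of -0.01, and array 8 has a deviation of -0.16 at a control signal of 6.25.

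The hepatocyte markers Alb, Apoa1, Ttr, Cyp2e1 and Serpina1c lay above the control signal in both groups. Ucp1 itself lay under the control signal in both groups, at 4.27 ± 0.37 and 4.10 ± 0.22 (SD, n = 6 each), so in liver its level does not check the labels. The 6 Kupffer cell markers had a mean deviation from -0.44 to 1.06 in WT-dam mice and from -0.32 to 0.44 in UCP1-KO-dam mice. The adipocyte markers, all under the control signal, had a mean deviation from -0.38 to -0.02 in WT-dam mice and from -0.11 to 0.51 in UCP1-KO-dam mice. Among 5 sinusoidal endothelial markers Stab2 gave -0.74 (adjusted p = 0.175) and Lyve1 gave 0.94 (adjusted p = 0.191). The part of other cell types in the members' differences was not tested. In bulk tissue, fewer cells of a type and less RNA per cell cannot be told apart.

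The other genes of the pathway showed no call at an adjusted p under 0.05 in any list. Of the 16 genes in the list for complex I assembly 6 had a difference above 0, with a median of -0.03. Ndufab1, a subunit of complex I that the symbol rule for members did not match, is also counted in this list. Foxred1, an assembly factor with a flavin-binding fold, had 8.35 ± 0.11 in WT-dam mice and 7.87 ± 0.19 in UCP1-KO-dam mice (SD, n = 6 each), a difference of -0.48 (-0.74 to -0.22, adjusted p = 0.130). Of 18 complex IV assembly factors measured 7 had a difference above 0, with a median of -0.09. The assembly lists of complexes II and III had 2 of 4 and 3 of 6 above 0. The list of ATP synthase assembly and inhibitor genes had 2 of 5. The 11 coenzyme Q genes had 7 above 0, and the 12 citric acid cycle genes had 6.

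Among 13 regulators of mitochondrial genes, an unadjusted p under 0.05 was found for 2 that were higher and 3 that were lower, beside 7.08% and 6% of all probe sets. Gabpa, the DNA-binding subunit of a factor that acts on many respiratory genes, gave 0.40 (0.13 to 0.67, adjusted p = 0.191), and Polrmt, the RNA polymerase of mitochondria, gave -0.55 (-0.97 to -0.14, adjusted p = 0.235). Of the routes that bring electrons to coenzyme Q past complexes I and II, Etfa, a subunit of the electron transfer flavoprotein, gave 0.37 (0.10 to 0.63, adjusted p = 0.232), and Prodh, which oxidises proline, gave -0.62 (-1.19 to -0.05, adjusted p = 0.332).

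Ribosomal protein genes were set beside the members as other housekeeping lists. Of 65 cytosolic ribosomal protein genes 54 had a difference above 0 (83.1%), with a median of 0.19, and at an unadjusted p under 0.05 the count was 19 higher and 0 lower, beside 7.08% and 6% of all probe sets. Their mean deviation was lowest on WT-dam arrays 3 and 4, at -0.38 and -0.29. Of 76 mitochondrial ribosomal protein genes 44 had a difference above 0, with a median of 0.04. Their mean deviation on arrays 1 to 6 was 0.24, 0.08, -0.10, -0.16, -0.05 and -0.12. On arrays 7 to 12 it was 0.12, -0.04, -0.01, -0.09, 0.13 and 0.01. High values on array 1 and low ones on arrays 3, 4 and 6 were thus not particular to the members.

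The promoters of 70 of the 86 members were found in the RefSeq table, and 4 motifs named after factors known for respiratory genes were searched on both strands of each 300-base window. The letters were GCGCANGCG for NRF1, CCGGAAG for GABP and other ETS factors, AAGGTCA for the estrogen-related receptors (ERR) and AAGATGGC for YY1, where N is any base. The unit counted is the gene: where a gene has different annotated starts, as Atp5c1 does, a match in any of its windows counted. The NRF1 letters were present for 21 of the 70 genes (30.0%). This stands beside 7.03% of the 27025 genes of the table and 15.7% of 7794 named genes above the control signal. Of the complexes, I had 8 of 33, II 2 of 3, III 2 of 5, IV 1 of 13 and V 7 of 15, besides Cycs, whose match is among the sequences shown. The GABP letters were present in 17 (24.3%), beside 9.93% of the table and 20.5% of genes above the control signal. The ERR letters were present in 8 (11.4%), beside 5.38% of the table and 4.16% of genes above the control signal. Those of YY1 were present in 10 (14.3%), beside 3.19% and 5.45%.

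Any of the 4 motifs was present in 41 of the 70 (58.6%) and in 22.4% of the table. Member promoters held a median of 19 CpG against 7 over the table, so base composition differed as well. For any motif and for CpG, values over the genes above the control signal alone are not given. The NRF1 letters read nearly alike on both strands, and matches that overlap were the same stretch. The median difference between the groups, with and without the motif, was 0.09 and 0.12 for NRF1, 0.15 and 0.10 for GABP, 0.23 and 0.09 for ERR and 0.08 and 0.13 for YY1. A match describes letters in the window and not a bound site.

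**Figure D5:**
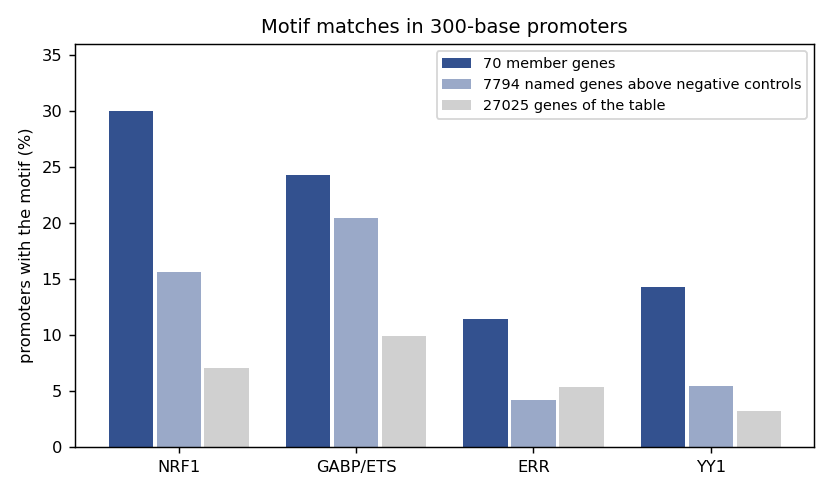
Share of genes with each motif in a 300-base promoter, on either strand (y axis, percent). Bars show the 70 members found in the table, the 7794 named genes above the negative control signal and all 27025 genes of the table. The members' bar is the tallest for each of the 4 motifs, by the widest margin for NRF1 (30.0% against 15.7% and 7.03%).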

How the data were processed

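Liver RNA of 12 mice was hybridised to 1 array each. The authors deposited 1 table of log2 signals, and the submitters' processing notes name RMA and Transcriptome Analysis Console, with versions and genome build not given in the sources used here. RMA sets all arrays to 1 distribution of probe signals, so array totals carry no depth, and precision is limited by 6 arrays a group. Of 28846 probe sets, 6640 controls were left out. The other 22206 entered a two-sided limma fit (version 3.58.1 under R 4.3.3, functions lmFit and eBayes) on dam genotype alone, and p-values were adjusted by Benjamini-Hochberg over all of them. Gene symbols came from the platform annotation: 19572 probe sets had 1 symbol and 2634 none that was used. All 86 members matched RefSeq by gene number.

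A probe set counts as above the control signal when its group mean exceeds the group mean of the arrays' negative control medians. Medians and counts over members are descriptions without a test. The text names a list of core genes, the 4 members of smallest p and the extremes of each complex, and up to 2 genes per pathway list. Ndufs7, Ndufa4, Ndufb4, Ndufb4b, Uqcr10, Atp5d, Cox6b1, Cox7b and the dim isoforms outside this rule were named after their values were seen. Members, lists and the sets of arrays left out together were chosen with earlier results of these data known. The fit was tested on simulated data. Figures were drawn with matplotlib 3.10.9 in Python 3.11.15. A planned comparison of isoform proteins was not run.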

Additional observations from a re-analysis of the deposited data

Results flagged for a closer look

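Of 86 groups of 6 arrays tested (the 38 named members and summary measures, each dam group by itself), 4 had a highest or lowest array set apart from the rest by more than Dixon's critical share of the group's range, and chance gives about 1 in 20. Array 8 of the UCP1-KO dam group was the low one in 3: Atp5g1 at 14.45 with the nearest at 15.17, Cox5a at 12.88 with the nearest at 13.42, and Cox8a at 14.33 with the nearest at 14.92. Array 1 of the WT dam group was the high one for Sdhb, at 14.12 with the nearest at 13.81. Without array 8 the differences of Atp5g1, Cox5a and Cox8a were -0.15, 0.19 and 0.01.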

How the results depend on the processing

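No member passed at an adjusted p under 0.05 with limma under any of 23 alternatives. Among them, Benjamini-Yekutieli adjustment is stricter than Benjamini-Hochberg and could not add a call. At an unadjusted p under 0.05 the report's fit gave 5 higher and 1 lower. The number higher at an unadjusted p was 13 after quantile normalization, 3 with arrays centred on their medians, 9 without the dimmer 50% of probe sets, 9 without those under the control signal, 11 with a variance trend and robust estimation, 2 with the control signal as a covariate (5 lower), 0 without WT-dam arrays 3 to 6 (12 lower) and 1 without UCP1-KO-dam arrays 8, 10 and 11 (0 lower). Leaving out WT-dam arrays 1 and 2, chosen after seeing the data, gave 26 higher and 0 lower. Among the alternatives, shares over all probe sets are given above only for those without arrays 3 to 6 or arrays 1 and 2. The other counts have no background beside them and describe only their dependence on the setting. Without WT-dam arrays 3 to 6 the medians of complexes I to V were -0.17, -0.079, 0.0014, -0.0859 and -0.13, with only 2 arrays left in that group; the cause was not tested. With each array left out in turn the number higher ran from 2 (without WT-dam array 3) to 19 (without WT-dam array 1) and the number lower from 0 to 1. The medians ran from 0.06 to 0.15 for complex I, 0.07 to 0.22 for II, 0.11 to 0.25 for III, 0.08 to 0.17 for IV and 0.06 to 0.14 for V, the difference in control signal from -0.23 to -0.12, and members called stayed at 0. Of 38 named members, 20 kept their sign in every alternative and 18 did not, in 59 of 868 values. Some of these values could not change sign. Benjamini-Yekutieli adjustment, the variance trend with robust estimation and leaving out dim probe sets do not alter a difference. Averaging the probe sets of a symbol does not either, since each member has a single probe set. No paired analysis was possible because the groups share no replicate numbers.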
